A study of Mus musculus with 16 samples.

Results

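The neuronal pentraxins are the 3 genes Nptx1, Nptx2 and Nptxr, selected by name from the 55385 genes of the count and TPM tables and followed across all 16 libraries. All 3 were among the 17222 genes that passed the filter on low counts. The libraries were made from primary hippocampal cultures of newborn C57BL/6N mice, and each group held 4 of them. All cultures, the control ones included, had received a recombinant adeno-associated virus with an shRNA under the U6 promoter and GFP under that of chicken β-actin. One shRNA was the non-targeting Control-shRNA and the other was directed at Dnmt3a1, the long isoform of the DNA methyltransferase Dnmt3a. For the latter the study sequenced cultures with a single sequence, its Dnmt3a1-shRNA2. Each shRNA was studied in baseline (0 h of bicuculline) and after 4 h of bicuculline, which blocks GABA-A receptors and thereby raises network firing. The cultures are mixed, the virus was of a serotype chosen because it favours neurons, neither promoter is restricted to a cell type, and the values are of bulk RNA, in which fewer cells of a type and less RNA per cell cannot be told apart.

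Neuronal pentraxins are long pentraxins made mainly by neurons. Nptx1 and Nptx2 are secreted, Nptxr is anchored in the membrane by an N-terminal segment from which it can be cut, and the 3 proteins assemble into mixed multimers at excitatory synapses. There they bind the extracellular part of AMPA-type glutamate receptors and cluster them, which is best described for the excitatory synapses onto parvalbumin interneurons. Nptx2, also called Narp, was found as an immediate early gene of neuronal activity, whereas Nptx1 and Nptxr are usually described as more constant in their expression.

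In the annotation of GENCODE release M21 on GRCm38, Nptx1 (ENSMUSG00000025582.4) lies on the minus strand of chromosome 11, from 119538719 to 119547753. Nptx2 (ENSMUSG00000059991.7) is at 144545902 to 144557478 of chromosome 5, plus strand, and Nptxr (ENSMUSG00000022421.19) at 79786351 to 79804766 of chromosome 15, minus strand. The lowest-numbered protein-coding transcript of each gene has 5 exons, with 432 codons for Nptx1, 429 for Nptx2 and 493 for Nptxr. The annotated reading frame of Nptxr opens with ctg, and those of Nptx1 and Nptx2 open with atg. To show how the members are related, the coding strand around the pentraxin family signature is printed 5′ to 3′ as DNA, with the 8 codons of the signature in capitals and 13 codons on each side in lower case. The signature is the protein pattern histidine, any residue, cysteine, any residue, serine or threonine, tryptophan, any residue, serine or threonine, and it was searched in the reading frame of annotated coding sequences. All 3 windows lie within exon 4. They are at chr11:119543257-119543358, chr5:144555300-144555401 and chr15:79790341-79790442 for Nptx1, Nptx2 and Nptxr.
Nptx1: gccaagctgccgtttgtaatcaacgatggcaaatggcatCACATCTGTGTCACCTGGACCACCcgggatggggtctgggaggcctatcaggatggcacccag
Nptx2: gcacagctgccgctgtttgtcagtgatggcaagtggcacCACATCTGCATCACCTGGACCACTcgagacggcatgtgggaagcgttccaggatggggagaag
Nptxr: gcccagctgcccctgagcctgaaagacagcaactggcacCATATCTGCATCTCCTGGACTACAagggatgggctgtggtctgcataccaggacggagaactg
Of the 24 signature bases, 21 were identical between Nptx1 and Nptx2, 18 between Nptx1 and Nptxr and 20 between Nptx2 and Nptxr. Over the aligned coding sequence, base identity was 70.7% for Nptx1 and Nptx2, 68.7% for Nptx1 and Nptxr and 72.9% for Nptx2 and Nptxr. The signature was found in 9 of 21866 protein-coding genes (0.0412%), 6 of them among the 10 genes listed here as the pentraxin family.

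Each library held between 28912697 and 29586355 estimated counts, and mitochondrial genes took 2.73% to 6.60% of them. Dnmt3a, the gene the knockdown targets, fell by 85.8% in baseline and by 86.1% with bicuculline, with no overlap between the shRNAs, and bicuculline raised Arc, Fos and Npas4 with both shRNAs (log2 fold changes from 5.64 to 7.32 with Control-shRNA). The counts sum the transcripts of a gene, so the isoforms Dnmt3a1 and Dnmt3a2 were not separated. The summed CPM of 5 pan-neuronal markers ranged from 4609 to 6185 over the libraries, that of 6 astrocyte markers from 253 to 678 and that of 5 microglial markers from 1.63 to 4.35. A gene was called where its log2 fold change lay beyond 0.5 in either direction and its p-value, adjusted after Benjamini and Hochberg, was under 0.05. Unless another tool is named, adjusted p-values are from the quasi-likelihood test of edgeR over all genes tested. CPM is the count relative to the TMM-scaled library size, without correction for gene length.

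**Figure D1:**
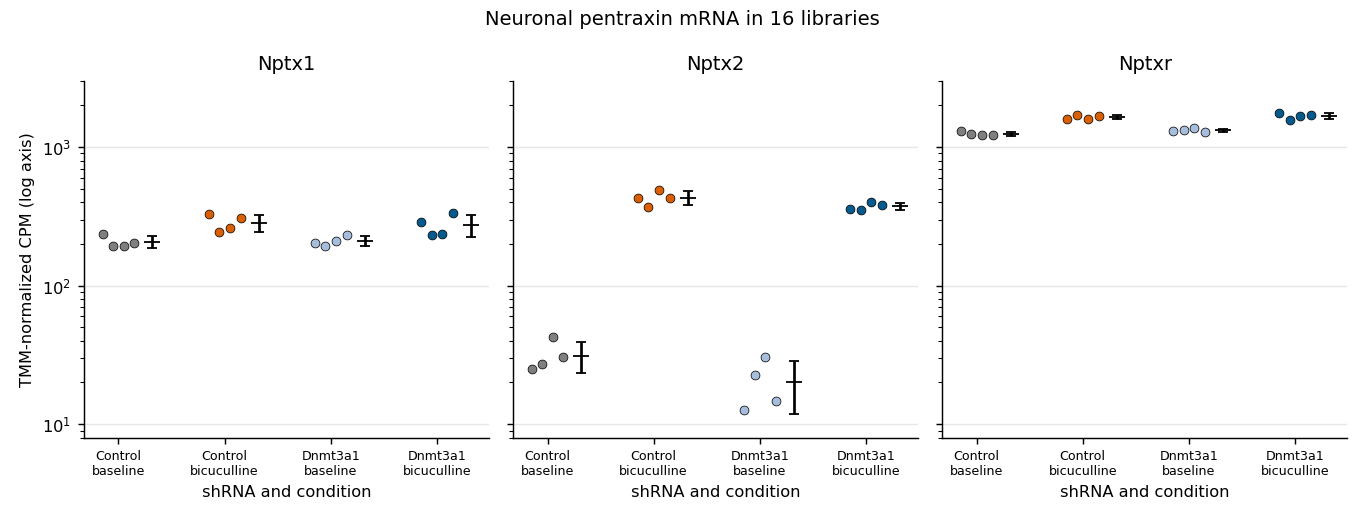
Level of Nptx1, Nptx2 and Nptxr in each of the 16 libraries, in TMM-normalized CPM on a log axis, with the mean and SD of each group of 4 at its right. Nptx2 lies between 12.7 and 42.3 CPM in the baseline libraries and between 349 and 492 CPM in those with bicuculline, while Nptx1 and Nptxr keep within 192 to 333 and 1214 to 1760 CPM.

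The strongest response among the 3 genes was that of Nptx2, the secreted, activity-induced member. In Control-shRNA cultures it was at 25.1, 27.0, 42.3 and 30.4 CPM in the baseline libraries numbered 1 to 4, and at 431, 371, 492 and 432 CPM after bicuculline. Every stimulated library lay far above every baseline library, and the library numbered 3 was the highest of its group in both. The mean rose from 31.2 ± 7.73 to 431 ± 49.7 CPM (SD, n = 4), a 13.8-fold increase with a 95% interval of 9.95 to 19.2. On the log2 scale this was 3.79 (standard error 0.23, adjusted p = 5.31e-10), and 61 of the 17222 genes tested had a larger one.

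In Dnmt3a1-shRNA cultures, Nptx2 was at 12.7, 22.7, 30.8 and 14.6 CPM in baseline and at 359, 349, 401 and 383 CPM with bicuculline. The groups again did not overlap, and the library numbered 3 was once more the highest of each. The mean rose from 20.2 ± 8.30 to 373 ± 23.4 CPM (SD, n = 4), which is 18.4-fold (95% interval 13.1 to 25.8). The fitted log2 value was 4.20 (standard error 0.23, adjusted p = 1.48e-10), with 56 genes above it. The coefficient of variation of the 4 baseline libraries was 24.8% with Control-shRNA and 41.1% with Dnmt3a1-shRNA, against 11.5% and 6.27% after bicuculline, so the spread between libraries was proportionally wider in baseline.

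Nptx1, the other secreted member, was at 238, 195, 192 and 202 CPM in the Control-shRNA baseline libraries and at 328, 242, 262 and 307 CPM with bicuculline. The lowest stimulated library stood just above the highest baseline library, at 242 against 238 CPM. The means were 207 ± 21.0 and 285 ± 39.4 CPM (SD, n = 4). On the log2 scale the difference was 0.46 (standard error 0.12, adjusted p = 0.00405). The gene thus passed on the p-value and stayed below the fold threshold. Without replicate 1 of the baseline libraries it was 0.53 and without replicate 2 of the stimulated ones 0.53, and in both cases Nptx1 was called.

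In Dnmt3a1-shRNA cultures, Nptx1 was at 204, 193, 210 and 234 CPM in baseline and at 290, 231, 235 and 333 CPM with bicuculline. Here the groups overlapped, because the stimulated library numbered 2 was below the baseline library numbered 4. The means were 210.2 ± 17.2 and 272 ± 48.7 CPM (SD, n = 4), and the difference on the log2 scale was 0.37 (standard error 0.12, adjusted p = 0.0142), below the fold threshold. Without replicate 4 of the stimulated libraries it was 0.26 and the adjusted p-value rose to 0.0761.

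Nptxr, the membrane-anchored member, was at 1311, 1234, 1214 and 1217 CPM in the Control-shRNA baseline libraries and at 1589, 1701, 1604 and 1674 CPM with bicuculline. Its replicates were the tightest of the 3 genes, and the groups were separate. The means were 1244 ± 45.6 and 1642 ± 54.1 CPM (SD, n = 4), and their difference of 0.40 on the log2 scale (standard error 0.05, adjusted p = 6.62e-06) did not reach the fold threshold. In Dnmt3a1-shRNA cultures Nptxr was at 1308, 1320, 1369 and 1287 CPM in baseline and at 1760, 1581, 1674 and 1706 CPM with bicuculline. These groups were separate as well, with means of 1321 ± 34.8 and 1680 ± 75.1 CPM (SD, n = 4) and 0.35 on the log2 scale (standard error 0.05, adjusted p = 2.39e-05).

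With Control-shRNA, then, 1 of the 3 members was called higher with bicuculline, where 10.8% of all genes tested were, and 0 were called lower, against 11.1% of all genes. The groups did not overlap for 3 of 3 members, as for 39.7% of all genes. With Dnmt3a1-shRNA the same counts were 1 higher (12.6% of all genes), 0 lower (13.2%) and 2 without overlap (40.4%). For Nptx1 and Nptxr the response was of a size common in these cultures, with 2562 and 2928 genes above them in the Control-shRNA comparison. Scaling by library size alone, in place of TMM, shifted the median over all genes to −0.15 with Control-shRNA and to −0.16 with Dnmt3a1-shRNA, and the lower genes then made up 69.0% and 67.2% of all calls, against 50.8% and 51.1% with TMM. With that scaling Nptx1 was at 0.30 and 0.22 and Nptxr at 0.24 and 0.20, and relative to the shifted median they were at 0.46 and 0.38 and at 0.40 and 0.35. These relative values return those with TMM by construction, because a change of scaling moves all genes by nearly the same amount. The adjusted p-value of Nptx1 with Dnmt3a1-shRNA was then 0.0950. On the scale of log2(TPM + 1), tested with limma, Nptx1 was at 0.25 and 0.16 (adjusted p = 0.0869 and 0.255) and Nptxr at 0.20 and 0.16 (adjusted p = 0.0412 and 0.0983). Relative to the median over all genes on that scale, Nptx1 was at 0.39 and 0.29 and Nptxr at 0.34 and 0.29.

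**Figure D2:**
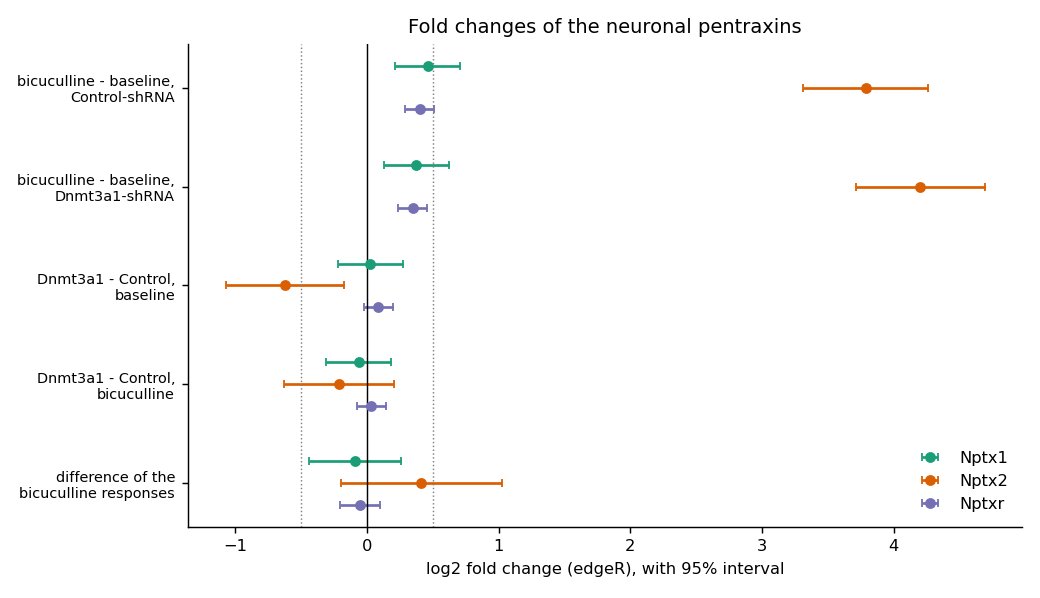
Log2 fold changes of the 3 members in the 5 contrasts, as points with 95% intervals from the edgeR fit, with dotted lines at the fold threshold of 0.5 on either side of 0. Nptx2 stands at 3.79 and 4.20 for bicuculline, while Nptx1 and Nptxr lie between 0.35 and 0.46 there, and in the knockdown contrasts the interval of Nptx2 in baseline is the only one that does not include 0.

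The summed CPM of the 5 GABAergic markers moved with bicuculline in the same libraries. It ranged from 2072 to 2479 in Control-shRNA baseline and from 3009 to 3384 with bicuculline, and from 1907 to 2217 and from 2677 to 3215 with Dnmt3a1-shRNA. Of these 5 markers, 3 (Gad1, Gad2 and Dlx1) were called higher with either shRNA, and all 5 had an adjusted p-value under 0.05 with each. Of all genes, 10.8% were called higher with Control-shRNA and 12.6% with Dnmt3a1-shRNA. The 5 excitatory markers summed to between 2459 and 2698 CPM in Control-shRNA baseline and to between 2383 and 2591 with bicuculline. Within that sum Slc17a6, a vesicular glutamate transporter, was called higher (1.54 and 1.53 with Control-shRNA and Dnmt3a1-shRNA) and Neurod6, a neuronal transcription factor, lower (−1.29 and −1.14). Also called with both shRNAs were the pan-neuronal Tubb3 (−0.77 and −1.12) and the oligodendrocyte marker Mog (−0.83 and −0.79) as lower and Col1a2, a fibroblast collagen, as higher (0.55 and 0.56), and Pdgfrb was higher with Control-shRNA (0.56). None of the 6 astrocyte markers was called. Their part in the pentraxin values was not tested.

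Levels of different genes are comparable only per length, for which the deposited TPM values were used. In Control-shRNA baseline Nptxr stood at 541 ± 17.8 TPM, Nptx1 at 85.3 ± 4.83 and Nptx2 at 27.9 ± 8.43 (SD, n = 4). With bicuculline the order of the secreted members turned, with Nptx2 at 332 ± 48.4 TPM and Nptx1 at 102 ± 10.9, both below Nptxr at 621 ± 41.7. The same holds with Dnmt3a1-shRNA, where the means were 531 ± 53.0, 80.4 ± 10.1 and 16.9 ± 8.17 TPM for Nptxr, Nptx1 and Nptx2 in baseline and 591 ± 38.9, 90.6 ± 15.1 and 267 ± 33.1 with bicuculline. In each of the 16 libraries Nptxr was the highest, and in no group did the TPM ranges of any pair of members overlap. The ratio of Nptx2 to Nptx1 was 0.329 ± 0.104 in Control-shRNA baseline and 3.29 ± 0.531 with bicuculline (SD, n = 4), and 0.208 ± 0.0899 and 3.00 ± 0.545 with Dnmt3a1-shRNA. The ratio of Nptxr to Nptx1 lay between 6.18 and 6.64 in the 4 group means.

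Among the genes tested, ordered by mean TPM, Nptx2 took rank 5752 in Control-shRNA baseline and rank 463 with bicuculline, and with Dnmt3a1-shRNA ranks 7213 and 575. Nptxr remained between ranks 200 and 229 in the 4 groups and Nptx1 between 1741 and 2216. The TPM of the 3 genes together was 654 ± 25.0 in Control-shRNA baseline, 1054 ± 70.3 with bicuculline, 629 ± 67.7 in Dnmt3a1-shRNA baseline and 949 ± 76.2 with bicuculline (SD, n = 4).

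**Figure D3:**
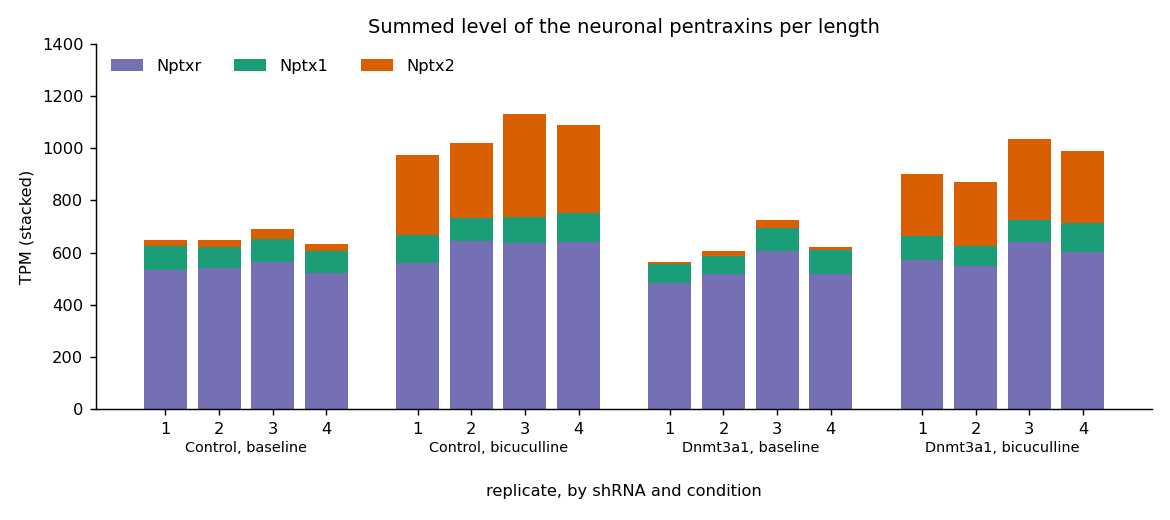
Stacked TPM of Nptxr, Nptx1 and Nptx2 in each library, from 0, with the replicates of the 4 groups side by side. Nptx2 is a thin cap in the baseline libraries, at 1.69% to 5.80% of the stack, and makes up 26.4% to 35.1% of it after bicuculline.

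Nptx2 made up 4.24% ± 1.12 of the summed TPM in Control-shRNA baseline and 31.4% ± 2.89 with bicuculline (SD, n = 4), a difference of 27.2 percentage points (two-sided exact permutation test, p = 0.0286, which is the lowest that 4 libraries against 4 allow, and 0.0571 after adjustment over the 4 comparisons). With Dnmt3a1-shRNA the share was 2.62% ± 0.998 in baseline and 28.1% ± 1.50 with bicuculline, a difference of 25.5 points with the same p-values. Between the shRNAs the share was lower with the knockdown by 1.62 points in baseline and by 3.29 points with bicuculline (two-sided exact permutation tests, p = 0.0857 in each case, also after adjustment), which did not pass the threshold. These differences exceed the SD of either group, the groups overlapped, and the test does not pair libraries. In the baseline libraries numbered 1 to 4 the share was 3.22%, 3.74%, 5.80% and 4.21% with Control-shRNA and 1.69%, 2.99%, 3.85% and 1.94% with Dnmt3a1-shRNA, lower in all 4 same-numbered pairs. The share is a ratio within each library, which the scaling between libraries does not enter.

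The comparison of Dnmt3a1-shRNA with Control-shRNA asks whether the level of the pentraxins differs after knockdown of Dnmt3a1. With a single shRNA sequence, an effect of lower Dnmt3a1 and an effect of that sequence on other genes cannot be told apart. In baseline, the 4 Nptx2 values of 12.7, 22.7, 30.8 and 14.6 CPM in knockdown libraries stood against 25.1, 27.0, 42.3 and 30.4 CPM in control libraries. Knockdown libraries 1, 2 and 4 were below all control libraries, and library 3 was above control libraries 1, 2 and 4, so that the groups overlapped. The fitted log2 fold change was −0.62 (standard error 0.21, 95% interval −1.07 to −0.17), and with an adjusted p-value of 0.0549 the gene was not called. Among all genes tested, 895 had a lower value.

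The deviations of same-numbered libraries in this comparison correlated over all genes (r from 0.204 to 0.355). Differently numbered libraries were not compared, so this cannot show that the numbers mark shared preparations. Nptx2 was lower with the knockdown in all 4 same-numbered pairs, at 0.504, 0.841, 0.728 and 0.483 of the control CPM. With a block for the replicate number, the value was −0.64 (standard error 0.15, adjusted p = 0.0045) and Nptx2 was called lower. It was also called by voom with limma (−0.68, adjusted p = 0.0380) and not by DESeq2 (−0.62, adjusted p = 0.0673) or in a fit of only these 8 libraries (−0.64, adjusted p = 0.135). Without knockdown replicate 3 the value was −0.90 (adjusted p = 0.00349) and without control replicate 3 it was −0.44 (adjusted p = 0.195), while without control replicate 1 it was −0.72 (adjusted p = 0.0477). With all 4 libraries numbered 3 left out, an alternative chosen after the data were seen, it was −0.72 (adjusted p = 0.0151). The baseline difference kept its direction in all of these fits and passed the threshold in some of them only. The summed CPM of the 6 astrocyte markers ranged from 253 to 440 in the control libraries of this comparison and from 331 to 593 in the knockdown libraries, with 0 of 6 called. Of the other marker lists, Csf1r of microglia was called lower (−0.66), and Tubb3 (0.51) and Pdgfrb, a pericyte receptor (0.75), were called higher. The part of these markers in the Nptx2 value was not tested.

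**Figure D4:**
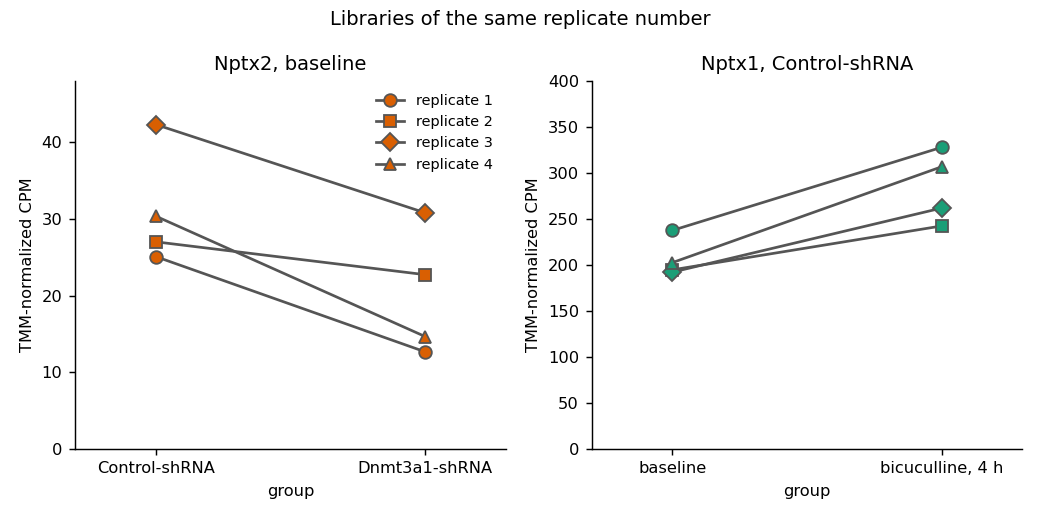
Libraries of the same replicate number joined by a line, in TMM-normalized CPM from 0. At the left, Nptx2 in baseline was lower with Dnmt3a1-shRNA in 4 of 4 pairs, and at the right, Nptx1 in Control-shRNA cultures was higher with bicuculline in 4 of 4 pairs.

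After bicuculline, Nptx2 was at 359, 349, 401 and 383 CPM in knockdown libraries and at 431, 371, 492 and 432 CPM in control libraries. The ranges overlapped between 371 and 401 CPM, and the knockdown library was the lower in all 4 same-numbered pairs. The deviations of same-numbered libraries missed the correlation criterion over all genes, but met it over genes of at least 10 CPM (r from 0.274 to 0.676). The fitted difference was −0.21 on the log2 scale (standard error 0.20, adjusted p = 0.512), with a 95% interval from −0.63 to 0.21. The response of Nptx2 to bicuculline was larger with the knockdown by 0.41 on the log2 scale (standard error 0.29, 95% interval −0.20 to 1.03), which the interaction test did not separate from 0 (unadjusted p = 0.174 and adjusted p = 0.999975 by edgeR). This value was 0.23 without control baseline replicate 3, 0.25 without knockdown baseline replicate 1 and 0.69 without knockdown baseline replicate 3, with adjusted p-values of 0.9995, 0.9992 and 0.688.

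Nptx1 and Nptxr showed no detectable difference between the shRNAs. For Nptx1 the means in baseline were 207 and 210.2 CPM, a log2 difference of 0.02 (standard error 0.12, adjusted p = 0.918). With bicuculline they were 285 and 272 CPM, a log2 difference of −0.06 (standard error 0.12, adjusted p = 0.759). The 95% intervals of −0.22 to 0.27 and −0.31 to 0.18 leave room for differences of that size, and the sign in baseline turned to −0.05 with scaling by library size only. For Nptxr the values were 0.09 in baseline (standard error 0.05, adjusted p = 0.288) and 0.03 with bicuculline (standard error 0.05, adjusted p = 0.709), at −0.03 and −0.07 on the scale of log2(TPM + 1). With TMM, the 95% intervals of Nptxr were −0.02 to 0.19 in baseline and −0.08 to 0.14 with bicuculline, which do not cover the choice of scaling.

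In baseline, then, the fit without a block called 0 of the 3 members higher with the knockdown (1.76% of all genes) and 0 lower (4.07%). There, 0 members had groups without overlap (19.9%). With bicuculline these counts were also 0, against 2.0% of all genes called higher, 3.90% called lower and 20.9% without overlap. With the replicate block, Nptx2 was called lower in baseline (−0.64, adjusted p = 0.0045, edgeR), where 867 genes in all were called lower. With library sizes only, the lower genes made up 85.8% of all calls in baseline and 80.8% with bicuculline, against 69.8% and 66.1% with TMM. The interaction of shRNA and bicuculline called 0 of 3 members and 0.00% of all genes by edgeR, with 852 genes at an unadjusted p under 0.05, and DESeq2 called 17 genes, none of them a member. For Nptx1 and Nptxr the 2 responses to bicuculline differed by −0.09 (95% interval −0.44 to 0.26) and −0.05 (95% interval −0.21 to 0.10).

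The genomic surroundings of Nptxr bear on how firmly its counts can be read. Npcd, a read-through gene annotated on the same strand, contains exons of Nptxr and of the neighbouring Cbx6, and reads shared between them can be divided by the quantification. Npcd was given between 0 and 23.8 estimated counts per library, against 37210 to 47925 for Nptxr, and adding its counts to those of Nptxr left the log2 fold changes at 0.40 and 0.35 for bicuculline and at 0.09 and 0.03 for the knockdown. Cbx6, which encodes a Polycomb group protein, ranged from 471 to 508 CPM in Control-shRNA baseline and from 408 to 439 CPM with bicuculline, and with Dnmt3a1-shRNA from 313 to 357 and from 243 to 267 CPM.

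The rest of the pentraxin family was measured at low levels. Ptx3, a secreted long pentraxin of innate immunity, was called higher with bicuculline, from 1.43 to 11.0 mean CPM with Control-shRNA (log2 fold change 2.94, standard error 0.51, adjusted p = 0.000145) and from 1.99 to 11.95 CPM with Dnmt3a1-shRNA (2.58, standard error 0.49). The stimulated libraries spread widely, from 4.58 to 21.0 CPM and from 4.35 to 21.7 CPM. Ptx4 had 9 to 13 counts in the Control-shRNA baseline libraries and 2 to 3 with bicuculline, and 22 to 37 and 1 to 4 counts with Dnmt3a1-shRNA. It was called lower with bicuculline in both and higher with the knockdown in baseline (log2 fold change 1.50, standard error 0.25). Svep1, a large extracellular matrix protein with a pentraxin domain, was not called in any comparison, and Crp, Apcs, Mptx1 and Mptx2 did not pass the filter on low counts.

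The partner list held 13 genes, and all 13 were tested. It had the AMPA receptor subunits to which pentraxins bind, the protease Adam17 that can release Nptxr, and Rcn2. The complement C1q chains and the C1q-like proteins C1ql1 to C1ql3 with their receptor Adgrb3 completed it. With bicuculline 2 were called higher and 1 lower, and these were C1ql2, C1ql3 and Adgrb3 with either shRNA. Of all genes, 10.8% were called higher and 11.1% lower with Control-shRNA and 12.6% and 13.2% with Dnmt3a1-shRNA, so a list of 13 with such counts is near that background. C1ql3, a secreted synaptic organizer, rose from 60.4 to 183 mean CPM with Control-shRNA (log2 fold change 1.60, standard error 0.10, adjusted p = 1.78e-09) and from 87.5 to 240 CPM with Dnmt3a1-shRNA (1.45, standard error 0.10). C1ql2 rose by 1.13 and 1.11 on the log2 scale, from 4.73 and 3.76 CPM. Adgrb3 fell from 107 to 74.0 CPM and from 127 to 80.7 CPM, log2 fold changes of −0.54 and −0.66, and its value with Control-shRNA came to −0.499, short of the threshold, without replicate 3 of the baseline libraries.

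None of the 4 AMPA receptor subunit genes was called with bicuculline. Gria2, which encodes the subunit that limits calcium entry, was at −0.33 (standard error 0.08, adjusted p = 0.00461) with Control-shRNA and at −0.29 (adjusted p = 0.00883) with Dnmt3a1-shRNA, past the p-value and below the fold threshold. Gria1, Gria3 and Gria4 lay between 0.15 and 0.20 with Control-shRNA and between 0.08 and 0.10 with Dnmt3a1-shRNA. The median of the 13 partner genes was 0.16 with Control-shRNA and 0.10 with Dnmt3a1-shRNA, beside 0.01 and −0.01 over all genes tested. After the knockdown 1 of the 13, C1ql3, was called in baseline, as higher (0.54, standard error 0.10, adjusted p = 0.00168), and 0 with bicuculline, where C1ql3 was at 0.39 (adjusted p = 0.0127). The baseline call of C1ql3 fell below the fold threshold with library sizes only (0.46), as it did without control replicate 2 (0.48) or knockdown replicate 1 (0.49).

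**Figure D5:**
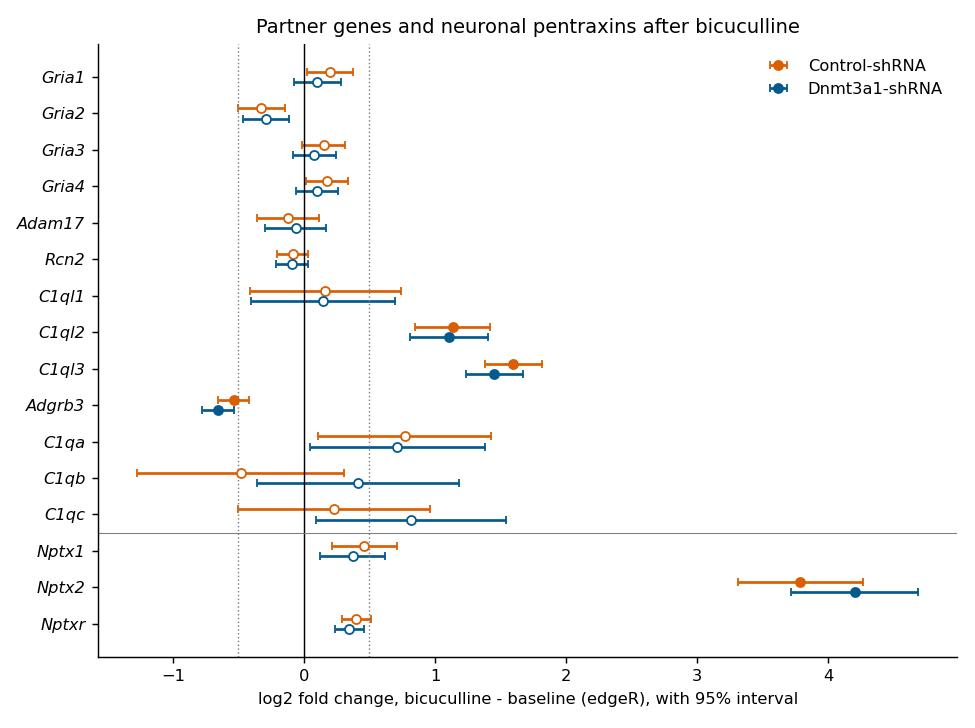
Log2 fold change with bicuculline of the 13 partner genes and, under the line, of the 3 neuronal pentraxins, with 95% intervals from the edgeR fit. Filled points were called, and these are C1ql2, C1ql3, Adgrb3 and Nptx2 with either shRNA, while the dotted lines mark the fold threshold of 0.5.

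Other lists of genes that neuronal activity induces, or whose products act at synapses, give the values of Nptx2 a scale. The 11 listed activity-induced effectors, among them Arc, Bdnf and Homer1, were called higher with both shRNAs, with a median of 2.81 and up to 5.64 for Control-shRNA and a median of 2.91 for Dnmt3a1-shRNA. Of all genes, 10.8% and 12.6% were called higher. The list was chosen for induction by activity, with earlier results of these data known, so its count is no test. In baseline, where 4.07% of all genes were called lower with the knockdown, 3 of the 11 were. These were Bdnf, a neurotrophin (−0.74), Vgf, a secreted neuropeptide precursor (−1.20), and Ptgs2, a cyclooxygenase (−2.59), and 8 were not called, Arc at −0.39 among them. The other immediate early genes used as checks lay on the opposite side. The mean of Fos was 10.3 CPM in control and 15.5 CPM in knockdown libraries, and it was called higher (0.58, adjusted p = 0.0437), a call lost in 12 of the 16 fits that left out 1 library, and Npas4 was not called (0.61, adjusted p = 0.0712). With bicuculline Ptgs2 was called lower (−1.06), as were 3.90% of all genes, and Homer1, a postsynaptic scaffold, higher (0.63), as were 2.0%. The call of Homer1 was lost when any 1 of 6 single libraries was left out and in 4 other settings, and that of Ptgs2 without the 4 libraries numbered 3.

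Of 19 other secreted synapse organizers 18 were tested, and bicuculline called 2 of them higher with Control-shRNA, Cbln2 (0.63) and Thbs1 (1.11), and 1 with Dnmt3a1-shRNA, Gpc6 (0.72). The shares of all genes called higher were 10.8% and 12.6%. Besides the fits that left out 1 library, the calls of Cbln2 and Thbs1 were each lost in 3 other settings and that of Gpc6 in 1. Among these, Cbln2 stayed below the fold threshold with library sizes only (0.47), and Thbs1 was not called without the 4 libraries numbered 3 (0.72). The highest of these 18 values were 1.11 and 0.72, beside 3.79 and 4.20 for Nptx2. With the knockdown, 2 were called higher, Chrdl1 and Sparcl1, and 3 lower, Cbln3, Lgi2 and Lgi3, in baseline and again with bicuculline. These comparisons share no library, but they share the viruses and the fit and are not independent. Of all genes, 1.76% and 2.0% were called higher and 4.07% and 3.90% lower. In baseline these values were 0.54, 0.53, −0.69, −0.67 and −0.57. Chrdl1 and Sparcl1 were below the fold threshold with library sizes only, which for each was 1 of 3 other settings that lost the call. Cbln3 was not called when any 1 of 7 single libraries was left out, nor in 4 other settings. Chrdl1 and Lgi3 each lost their call in 1 fit that left out 1 library. With bicuculline Sparcl1 lost its call in 2 fits that left out 1 library and in 3 other settings, Chrdl1 in 2 other settings and Cbln3 in 1. The 6 astrocyte markers, none of them called, lay between 0.29 and 0.64 with the knockdown in baseline and between 0.30 and 0.59 with bicuculline. Their part in the values of the organizers was not tested.

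Finally, the genes of at least 10 CPM whose profile over the 16 libraries was most like that of each member were sought among 9235 genes, by the root-mean-square difference of log2 CPM centred on the mean of the gene. For Nptx2 these were Penk, the enkephalin precursor, at 0.323, Sertad1 at 0.334 and Junb, an AP-1 transcription factor, at 0.423, where the profile of Nptx2 itself had a root-mean-square of 2.06. With bicuculline Penk had log2 fold changes of 3.82 and 4.18, Sertad1 of 3.68 and 4.05 and Junb of 3.93 and 4.21. With the knockdown in baseline Penk was at −0.44, Sertad1 at −0.22 and Junb at 0.08. In the knockdown comparison with bicuculline these 3 genes were at −0.07, 0.16 and 0.36, so they did not all share the lower values of Nptx2. For Nptx1 the nearest were Slc25a32, Ddi2 and Sh3yl1, at 0.0945 to 0.102 against 0.261 for Nptx1 itself. For Nptxr they were Gnas, Adora1 and Slc11a2, at 0.0547 to 0.0564 against 0.195 for Nptxr.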

How the data were processed

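RNA of 16 libraries, 4 in each of 4 groups taken from the sample labels, had been sequenced. Per the labels and the methods of the study, the authors trimmed paired reads (Trim Galore 0.6.4), ran kallisto against GRCm38.p6 transcripts and summed the estimated counts per gene. The deposited TPM values, from the same step, are scaled for transcript length and library total, and were used only for levels, shares and 2 alternatives. No library was pooled, and replicates were farther apart than counting alone gives (chi-square over its degrees of freedom from 7.88 to 44.5).

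Estimated counts were rounded to whole numbers, filtered with filterByExpr (17222 of 55385 genes kept), scaled by TMM (factors 0.871 to 1.124) and fitted over the 4 groups with the quasi-likelihood test of edgeR 4.0.16 (R 4.3.3), in place of voom with limma, which the study used. The shares of summed TPM were compared with exact permutation tests over libraries (SciPy 1.17.1). Alternatives were voom with limma 3.58.1, DESeq2 1.42.0, its size factors or unscaled library sizes in edgeR, other filters, limma on log2(TPM + 1) or log2(TPM + 0.1), only the compared groups, the replicate number as a block, no fold threshold, and each library left out. Leaving out the 4 libraries numbered 3 and adding Npcd to Nptxr were chosen after the data were seen.

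The members and gene lists were chosen with earlier results of these data known. Genes named are the members, Dnmt3a, Arc, Fos and Npas4 as checks, listed genes that were called, and the 3 nearest profiles of each member. Gria1 to Gria4 and the other uncalled partner genes, Arc in baseline, Svep1 and the other uncalled family genes, Cbx6 and Npcd were named besides. This was for completeness of the groups to which they belong or for their position. The replicate numbers, taken from the labels, paired the libraries where every same-numbered pair of deviations from the group means correlated above 0.1. It was met for bicuculline in Control-shRNA cultures (r from 0.142 to 0.221) and for the knockdown in baseline (0.204 to 0.355). It was not met for bicuculline in Dnmt3a1-shRNA cultures (0.0631 to 0.337) or the knockdown with bicuculline (0.0667 to 0.388). Over genes of at least 10 CPM every pair of the latter was above 0.1 (0.274 to 0.676). Bicuculline in Dnmt3a1-shRNA cultures missed the criterion there too, with the pair numbered 4 at 0.0725. Gene positions and coding sequences are from GENCODE M21. The edgeR script was tested on simulated data. Replicates are separate neuronal preparations by the methods of the study, and precision is set by the spread between them rather than by the depth of 28912697 to 29586355 counts.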

Additional observations from a re-analysis of the deposited data

How the results depend on the processing

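Nptx2 was called higher with bicuculline under every alternative run, with either shRNA. In the knockdown in baseline it was called lower with the replicate block (−0.64), voom with limma (−0.68), no filter on low counts (−0.62), at least 10 counts in every library (−0.63) and without the 4 libraries numbered 3 (−0.72), and ranged from −0.90 to −0.44 with 1 library left out. The cause of these changes was not tested. The replicate block is apt only if the numbers pair the libraries, which was not established. It changed no other call of a member, with Nptx2 at −0.21 (adjusted p = 0.262, edgeR) for the knockdown with bicuculline. Over all genes it called 3986, 4612, 1284 and 1338 genes in the 4 comparisons, and 3 for the interaction.

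Without the fold threshold Nptx1 (0.46 and 0.37) and Nptxr (0.40 and 0.35) were called with bicuculline, since both had passed on the p-value, and the calls over all genes came to 7131 and 7919 for bicuculline and to 2809 and 3046 for the knockdown. With 1 library left out Nptx1 ranged from 0.38 to 0.53 for bicuculline in Control-shRNA cultures. In the knockdown comparisons Nptx1 and Nptxr lay close to 0 and changed sign. In baseline Nptx1 was at −0.052 with library sizes only, −0.090 and −0.091 on the TPM scales, −0.012 without the libraries numbered 3 and −0.030 to 0.098 with 1 library left out, and Nptxr was at −0.031 on both TPM scales. With bicuculline Nptxr was at −0.039 with library sizes only and −0.071 on both TPM scales, and Nptx1 ranged from −0.18 to 0.0079 with 1 library left out.

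The interaction called 17 genes by DESeq2, 3 without the filter and 0 to 1 with 1 library left out. The difference in the Nptx2 share ranged from 25.9 to 28.3 points in Control-shRNA and from 24.9 to 26.1 points in Dnmt3a1-shRNA cultures with 1 library left out, where 3 libraries against 4 cannot go below an exact permutation p of 0.0571. Depth limits the values of Ptx4, which had 1 to 37 counts per library.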
